A study of Mus musculus with 9 samples.

Results

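The genes described here are 34 mouse genes of the NRF2 axis and of antioxidant defence, chosen by name from their known function, at a time when earlier results of these data were known. They encode the transcription factor NRF2, its inhibitor KEAP1 and the enzymes and carriers that handle glutathione, thioredoxin, peroxiredoxins, superoxide and haem breakdown products. All 34 names matched 1 Ensembl identifier each in both expression tables, out of 55655 rows per table. The series holds RNA-seq of bone marrow-derived macrophages (BMDMs), which are marrow precursors cultured into macrophages, in 3 groups of 3 libraries. Marrow came from the femurs and tibias of wild type C57BL/6 mice aged 6 to 8 weeks and was grown for 7 days with 10 ng/mL M-CSF, the macrophage growth factor, which gave the unstimulated M0 group. The M1 group received 100 ng/mL LPS, a bacterial wall component, together with 20 ng/mL IFN-γ. The M1+PBM group received the same stimulus plus photobiomodulation (PBM), which is irradiation with a near-infrared laser, here at 6 mW/cm2 for 7 minutes every 12 hours. Unirradiated M1 cells were kept in the same dark box without the laser, and RNA of the stimulated cells was taken at 12 hours. All groups were wild type. The study describes the experiment as repeated independently, but the labels do not tie a library to a mouse or a culture, so the p-values given here measure the spread between these libraries.

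NRF2, encoded by Nfe2l2, is a transcription factor that KEAP1 binds and marks for degradation. Oxidants and electrophiles modify KEAP1 cysteines, NRF2 then accumulates, and together with a small MAF protein it binds the antioxidant response element (ARE) in front of genes for glutathione synthesis, thioredoxin, quinone reduction and haem breakdown. Activated macrophages make superoxide and nitric oxide in quantity, and they use these same enzymes to limit damage to themselves.

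The core ARE, written TGACNNNGC, was searched on both strands of the RefSeq promoter windows of GRCm38.p6, each running from 250 bases before to 50 bases after a gene's start. Of the 34 genes, 30 had such a window, and 7 of these 30 (23.3%) held the core, against 13.99% of all 27025 genes with a window. Counted by window, 7 of the 42 windows of these genes held it, against 12.4% of all 32851 windows. The 7 matches are shown because they are the letters that NRF2 is known to read, with the core in capitals inside 29 bases of the gene's own strand, 5′ to 3′. In Nfe2l2 the core lies on the gene's strand, and in the other 6 it is on the opposite strand, so that its reverse complement is printed.
Nfe2l2: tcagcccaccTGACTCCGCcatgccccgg
Gclm: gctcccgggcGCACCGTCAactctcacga
Txnrd1: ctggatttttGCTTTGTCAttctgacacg
Srxn1: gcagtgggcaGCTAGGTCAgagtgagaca
Prdx1: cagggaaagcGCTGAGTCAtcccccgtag
Sod1: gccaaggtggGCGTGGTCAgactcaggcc
Mgst1: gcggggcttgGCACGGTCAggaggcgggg
The windows printed lie at chr2:75704885-75704913 for Nfe2l2 (minus strand), and on the plus strand at chr3:122245413-122245441 for Gclm, chr10:82859104-82859132 for Txnrd1 and chr2:152105542-152105570 for Srxn1. Those of Prdx1, Sod1 and Mgst1 are also on the plus strand, at chr4:116685456-116685484, chr16:90220696-90220724 and chr6:138140461-138140489. The Prdx1 core overlaps the AP-1 motif TGAGTCA, searched on both strands, which 5.20% of all windows held. No window was found for Gclc, Gsr, Hmox1 or Prdx6. A match is only a match of letters and does not show a bound site.

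The tables give FPKM, fragment counts scaled by transcript length and by library size, so levels of different genes can be set side by side. Steps in the low values correspond to 30790000 to 41990000 fragments per library. Of 10 macrophage identity genes, 9 were at 1 FPKM or more in every library, with a summed level between 5600 and 10409 FPKM. Dendritic cell and lymphoid marker lists summed to between 0.609 and 6.53 FPKM in all libraries, with the dendritic cell marker Flt3 and the erythroid marker Slc4a1 listed at 0 throughout. The neutrophil list summed to between 1.61 and 2.51 FPKM in M0, 8.94 and 28.1 FPKM in M1 and 6.44 and 15.2 FPKM in M1+PBM. Most of each sum was S100a8, at 1.13 to 2.11 FPKM in M0, 6.90 to 27.2 in M1 and 4.94 to 14.5 in M1+PBM. Camp was also higher in every M1 library than in M0, while S100a9 and Ly6g were listed at 0 throughout. M0 replicate 3 stood apart from the other M0 libraries. Its 8 M1 induction genes summed to 360 FPKM, against 20.1 and 17.3 FPKM in M0 replicates 1 and 2 and 3615 to 3878 FPKM in M1. Its stromal markers summed to 239.6 FPKM, against 11.3 and 8.64 FPKM in the other M0 libraries and at most 32.2 FPKM elsewhere. The main counts of genes called against M0 are therefore also given without M0 replicate 3.

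The 34 genes together made up 0.431 to 0.541% of all FPKM in M0, 0.751 to 0.919% in M1 and 0.679 to 0.938% in M1+PBM. In M1 the haem oxygenase gene Hmox1 had the highest level of the 34, at 877 ± 139 FPKM (SD, n = 3), followed by the peroxiredoxin gene Prdx1 at 557 ± 147 FPKM (n = 3). Every M1 library of Hmox1 lay above every M1 library of Prdx1. At the low end stood Glrx2 at 1.23 ± 0.0148 FPKM, Gss at 1.54 ± 0.370 FPKM, Txnrd2 at 2.11 ± 0.320 FPKM and Nqo1 at 2.15 ± 1.26 FPKM in M1 (n = 3 each), and the values of Gss, Txnrd2 and Nqo1 overlap. Among the values of all genes and libraries, only Nqo1 in M1+PBM replicate 2, at 0.729 FPKM, was under 1 FPKM. At the estimated depths Nqo1 rested on at most 47.5 to 222 fragments per library, and the next lowest gene, Mgst3, on at least 96.1 by the same upper estimate.

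The M0 and M1 groups ask how LPS plus IFN-γ alters these genes, but they stand in separate tables that may have been normalised separately, so their levels were compared without a test. A gene was called when the groups did not overlap and their mean log2(FPKM + 1) lay at least 1 apart, which is 2-fold on that scale. Of the 34 genes, 7 (20.6%) were called higher in M1, where 7.81% of 13915 expressed rows were. Another 4 (11.8%) were called lower, where 13.7% of rows were. The median difference was -0.17 over the 34 genes and -0.34 over all rows. Without M0 replicate 3, the 11 calls stayed and Sqstm1 (higher), Gclc and Gsto1 (lower) were added, giving 8 higher and 6 lower beside 8.82% and 14.6% of rows. Median-of-ratios scaling, which evens out the typical level between libraries, moved the median of all rows from -0.34 to 0.04. It called 12 of the 34 genes (35.3%) higher beside 11.7% of rows and 2 (5.88%) lower beside 6.93% of rows. As deposited and with the 2-fold limit set aside, 12 of the 34 genes were higher without overlap, beside 2175 of 13915 rows. Lower without overlap were 11 of the 34 genes, beside 7044 of 13915 rows, which is a larger share. In bulk libraries, fewer cells of a type and less RNA per cell cannot be told apart.

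**Figure D1:**
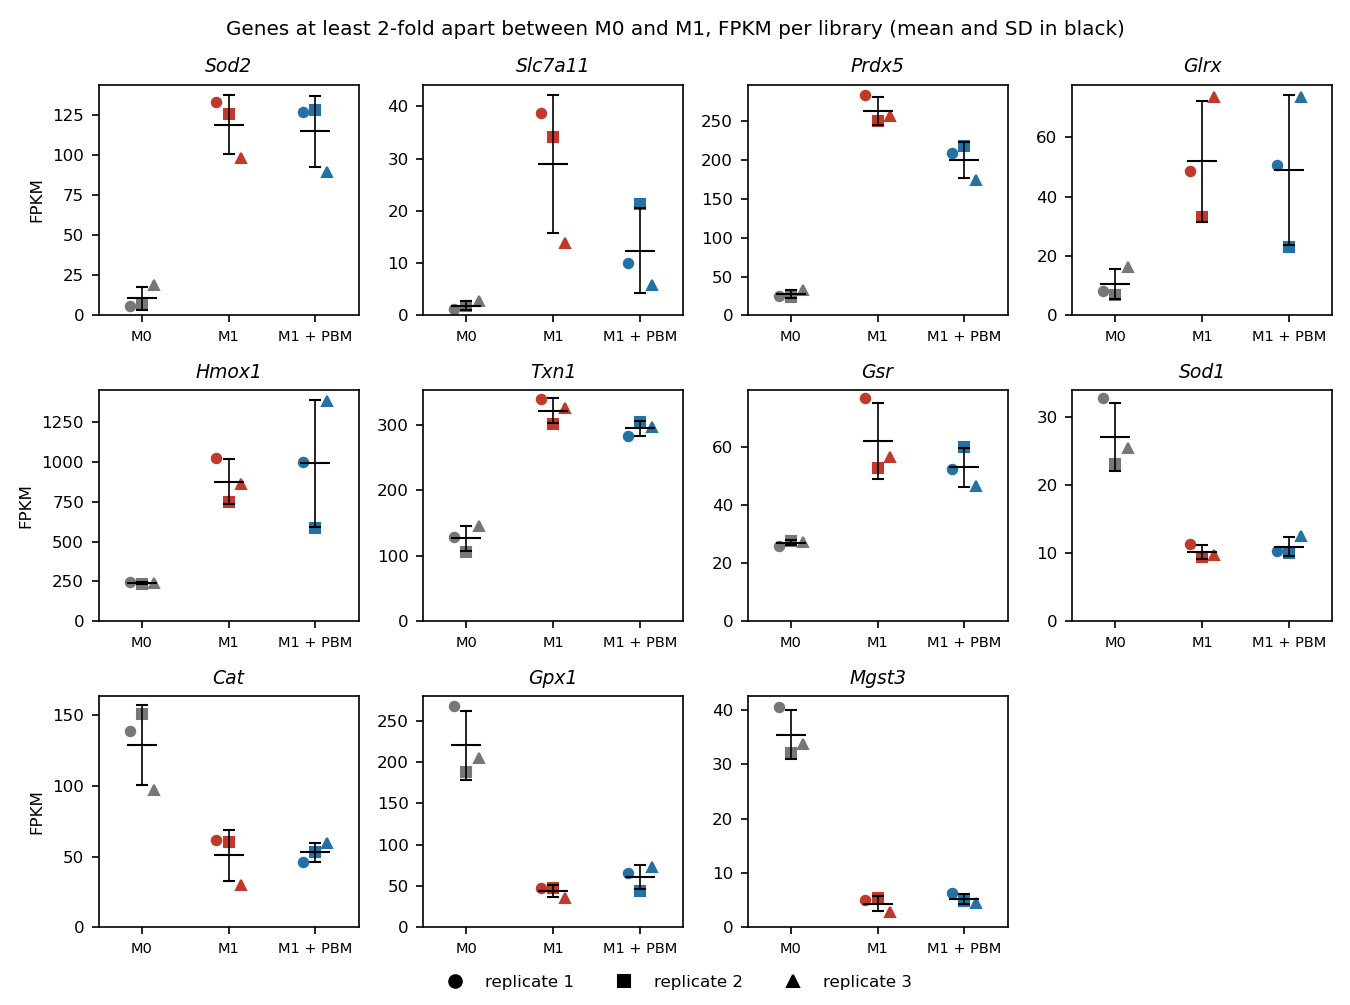
FPKM on a linear axis from 0 in each of the 9 libraries for the 11 genes called between M0 and M1, with a point per library, shaped by replicate number, and black marks for the group mean and SD (n = 3). The 7 genes called higher have every M1 library above every M0 library, and Gpx1, Mgst3, Sod1 and Cat have every M1 library below.

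The 3 genes of NRF2 control differed among themselves between M0 and M1. Nfe2l2 was at 52.7, 58.8 and 70.6 FPKM in M0 and 44.9, 57.5 and 36.5 FPKM in M1, and these ranges overlap. Its log2 difference was -0.40, and 0.10 after scaling, so its direction depends on the scaling. Keap1, whose protein holds NRF2 in check, was at 10.5, 9.05 and 13.5 FPKM in M0 and 17.9, 21.3 and 19.96 FPKM in M1. No M1 library overlapped M0, and the difference was 0.80, under the 2-fold limit as deposited and 1.26 after scaling. Sqstm1 encodes p62, an autophagy receptor that binds KEAP1, and was at 108, 118 and 128 FPKM in M0 and 257, 238 and 215 FPKM in M1. Its groups also did not overlap, and its log2 difference was 0.996, just inside the uncalled side of the limit. The called gene nearest to the limit was Gsr, at 1.15, which lost its call without M1 replicate 1 (0.99).

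Among the 3 enzymes grouped here as NRF2 targets, Hmox1, which opens the haem ring, was called higher. It stood at 249, 233 and 238 FPKM in M0 and at 1023, 746 and 862 FPKM in M1, a ratio of means of 3.66. Blvrb, a biliverdin and flavin reductase, averaged 39.7 ± 4.15 FPKM in M0 and 62.3 ± 10.6 FPKM in M1 (n = 3 each), without overlap, under the limit as deposited and past it after scaling (1.12). Nqo1, the quinone reductase often used to read out NRF2 activity, was at 3.30, 1.06 and 3.23 FPKM in M0 and 3.61, 1.44 and 1.41 FPKM in M1. Its ranges overlapped and its direction flipped with the scaling (-0.16 and 0.18). Further genes of this axis, Gclm, Gclc, Srxn1 and Txnrd1, are described under other roles below. None of them was called higher, as deposited or after scaling.

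Glutathione supply was divided. Slc7a11, the cystine carrier that brings in the limiting amino acid, was close to the floor in M0, at 1.17, 1.72 and 2.75 FPKM, and at 38.8, 34.1 and 13.9 FPKM in M1. Its ratio of means, 15.4, was the highest of the 34 genes, and its log2 difference was 3.29, or 3.50 without M0 replicate 3. Gsr, which reduces oxidised glutathione, was at 26.1, 27.7 and 27.4 FPKM in M0 and 77.1, 52.8 and 56.8 FPKM in M1. By contrast, the genes of glutathione synthesis itself were not called higher. Gclc, the catalytic subunit of the limiting ligase, averaged 11.9 ± 1.57 FPKM in M0 and 5.73 ± 2.34 FPKM in M1 (n = 3 each) without overlap. The log2 difference of Gclc was -0.995, and -0.55 after scaling. Its modifier Gclm and the synthetase Gss overlapped between the groups and changed direction with the scaling (log2 differences of -0.30 and 0.15, and of -0.18 and 0.13).

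In the thioredoxin and glutaredoxin system Txn1 and Glrx were the members called, both higher in M1. Txn1, cytosolic thioredoxin, was at 128, 106 and 145 FPKM in M0 and 339, 301 and 325 FPKM in M1. Glrx, cytosolic glutaredoxin, was at 8.27, 6.96 and 16.4 FPKM in M0 and 48.8, 33.1 and 73.8 FPKM in M1. The high M0 value of Glrx came from M0 replicate 3, and without it the log2 difference went from 2.21 to 2.55. Their mitochondrial counterparts Txn2 (9.06 ± 0.666 to 7.15 ± 0.735 FPKM) and Glrx2 (1.64 ± 0.170 to 1.23 ± 0.0148 FPKM; n = 3 each) were lower without overlap as deposited. Both were slightly higher after scaling, at 0.14 and 0.06 on the log2 scale. Mitochondrial thioredoxin reductase Txnrd2 averaged 4.58 ± 0.270 FPKM in M0 and 2.11 ± 0.320 FPKM in M1 without overlap. Its log2 difference was -0.85, and -0.47 after scaling. Cytosolic Txnrd1 averaged 40.9 ± 6.17 and 44.6 ± 7.93 FPKM, with overlap.

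Of the peroxiredoxins, which remove peroxides with thioredoxin or glutathione as reductant, Prdx5 was set apart. It was at 24.8, 23.9 and 33.2 FPKM in M0 and 285, 250.02 and 257 FPKM in M1, a ratio of means of 9.67. Prdx2 was also without overlap, from 30.5 ± 3.17 to 42.6 ± 0.933 FPKM (n = 3 each). Prdx3, the mitochondrial 2-cysteine member, was without overlap in the other direction, from 22.6 ± 2.31 to 15.4 ± 3.29 FPKM (n = 3 each). Its log2 difference of -0.54 shrank to -0.06 after scaling. Prdx1, Prdx4, Prdx6 and Srxn1, the sulfiredoxin that repairs overoxidised peroxiredoxin, overlapped, with log2 differences between -0.56 (Prdx4) and 0.57 (Prdx1). Of these 4, Prdx1 was called higher after scaling (1.07) and Srxn1 changed sign (from -0.37 to 0.13).

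The superoxide and peroxide enzymes gave the clearest split within a family. Sod2, mitochondrial superoxide dismutase, was at 6.11, 7.03 and 19.01 FPKM in M0 and 133, 126 and 98.2 FPKM in M1. Its high M0 value came from M0 replicate 3, and without that library its log2 difference went from 3.51 to 3.98. Sod1, its cytosolic counterpart, was at 32.7, 23.1 and 25.5 FPKM in M0 and 11.3, 9.50 and 9.69 FPKM in M1. The other enzymes, which destroy peroxide, lay on the side of Sod1. Catalase, Cat, was at 138, 151 and 97.4 FPKM in M0 and 61.9, 60.4 and 30.2 FPKM in M1. Gpx1, cytosolic glutathione peroxidase, was at 268, 188 and 205 FPKM in M0 and 48.1, 47.8 and 35.5 FPKM in M1, a ratio of means of 0.199. After scaling, Gpx1 kept its call (-1.80), while Sod1 (-0.84) and Cat (-0.87) stayed lower but inside the 2-fold limit. Gpx4, the lipid hydroperoxide enzyme, averaged 103 ± 8.73 FPKM in M0 and 58.5 ± 14.7 FPKM in M1 (n = 3 each) without overlap. The log2 difference of Gpx4 was -0.83, and -0.34 after scaling. Its level is uncertain because a processed copy, Gpx4-ps2, was listed at 10.3 to 28 FPKM and could share fragments.

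Among the transferases, Mgst3, a microsomal glutathione transferase, was at 40.6, 32.1 and 33.7 FPKM in M0 and 4.95, 5.33 and 2.79 FPKM in M1. Its ratio of means of 0.123 was the lowest of the 34 genes, and it kept its call after scaling (-2.34). Gsto1 averaged 20.9 ± 2.57 FPKM in M0 and 10.7 ± 3.39 FPKM in M1 without overlap, while Mgst1 and Gstm1 overlapped. The log2 difference of Gsto1 was -0.94, and -0.47 after scaling. Gstm1 belongs to a family of closely similar genes that the counting may not separate. Msrb1, a methionine sulfoxide reductase, averaged 90.2 ± 15.3 FPKM in M0 and 155 ± 9.85 FPKM in M1 (n = 3 each) without overlap, and it was called after scaling (1.29).

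**Figure D2:**
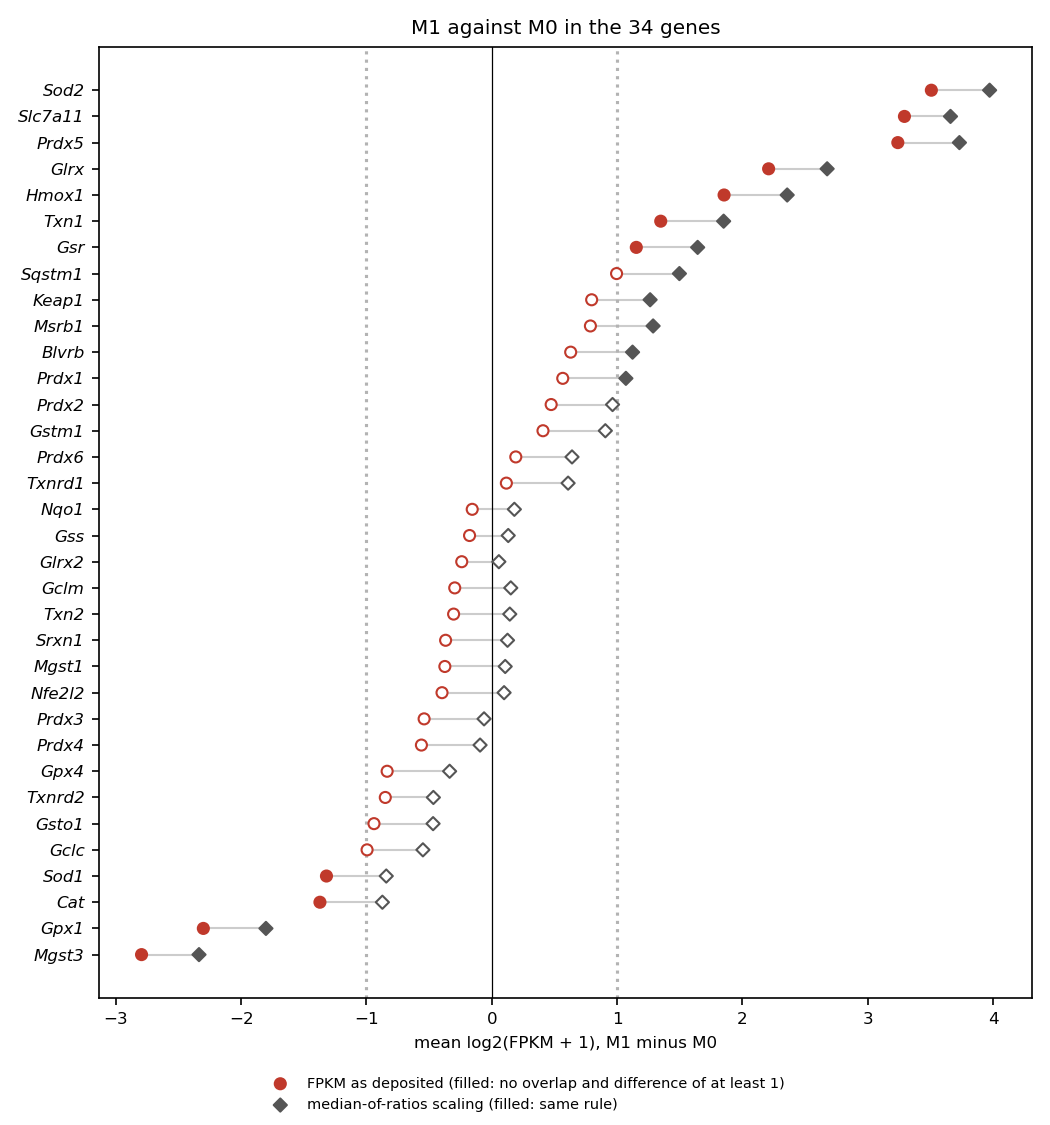
Difference in mean log2(FPKM + 1), M1 minus M0, for the 34 genes in order of that difference, with circles for FPKM as deposited, diamonds after median-of-ratios scaling, filled marks for called genes and dotted lines at the 2-fold limit. Sod2, Slc7a11 and Prdx5 lie above 3 and Mgst3 and Gpx1 at -1.80 or below in both versions, and scaling moves every gene to a higher value.

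The comparison of M1+PBM with M1 asks what irradiation does to these genes in stimulated macrophages, and both groups stand in 1 table. It was tested with limma over 12238 rows, among them all 34 genes. In limma without a replicate block, none of the 34 reached the study's threshold, an unadjusted p of at most 0.05 with a 2-fold change. Of all rows, 29 (0.237%) reached it as lower and 3 (0.0245%) as higher. The study reported more genes at this threshold, most of them higher with PBM, from a test that it does not name. Whether any of the 34 is among the study's genes was not tested. None of the 34 had an adjusted p under 0.05 in limma, as 0.00817% of rows did. At an unadjusted p of at most 0.05 alone, 1 gene (2.94%), Prdx5, was lower and 0 were higher, beside 1.45% and 2.99% of rows. The groups did not overlap for 2 genes higher (Keap1 and Prdx2, 5.88%) and 2 lower (Prdx5 and Sqstm1, 5.88%), beside 8.51% and 2.52% of rows. The log2 fold change was above 0 for 15 of 34 genes (44.1%), beside 65.6% of rows. Its median was -0.04 over the 34 genes and 0.06 over all rows. With the replicate number as a block, 1 gene was higher (Keap1, 2.94%) and 3 were lower (Slc7a11, Prdx5 and Gstm1, 8.82%) at an unadjusted p of at most 0.05, beside 4.84% and 3.24% of rows.

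**Figure D3:**
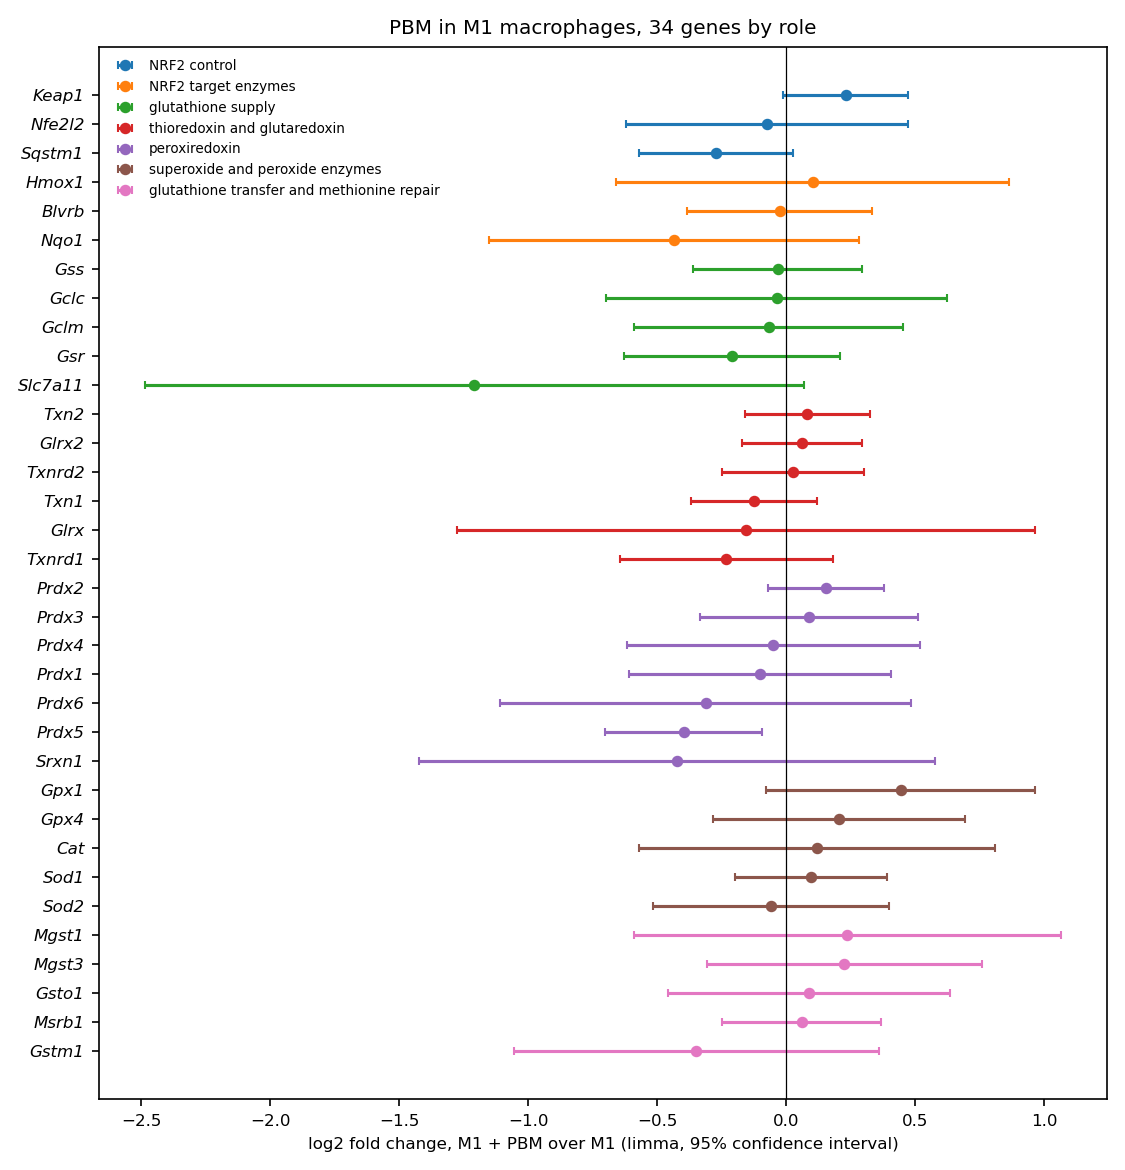
Log2 fold change of M1+PBM over M1 from limma on log2(FPKM + 1) for the 34 genes grouped by role, with 95% confidence intervals. The fit had no replicate block. The interval of Prdx5 (-0.70 to -0.09) is the only one that leaves out 0, and Slc7a11 has the lowest estimate, at -1.21.

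Prdx5 was at 285, 250.02 and 257 FPKM in M1 and at 209, 218 and 174 FPKM in M1+PBM. Every irradiated library was below every M1 library, and all remained far above the M0 level. The log2 fold change was -0.40 (SE 0.13, adjusted p = 0.90 in limma), its unadjusted p was 0.018, and the exact permutation test gave 0.1, the smallest p it can give with 3 libraries a group. When M1 replicate 1 was left out, the unadjusted p was 0.067 and the log2 fold change -0.34, and leaving out M1+PBM replicate 3 gave 0.053 and -0.30.

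Slc7a11 had the lowest estimate of the 34. It was at 38.8, 34.1 and 13.9 FPKM in M1 and 10.0, 21.4 and 5.82 FPKM in M1+PBM, so that M1 replicate 3 lay below M1+PBM replicate 2. The log2 fold change was -1.21 (SE 0.53, 95% confidence interval -2.49 to 0.07), with an unadjusted p of 0.060 and an adjusted p of 0.90 in limma. Within the shared replicate numbers it was lower by -1.85, -0.65 and -1.13. With the replicate block its unadjusted p was 0.0045 and its adjusted p 0.58, so that it then passed the 2-fold threshold. It also passed after median-of-ratios scaling (-1.28), and when M1 replicate 3 (-1.65) or M1+PBM replicate 2 (-1.67) was left out.

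Keap1 was at 17.9, 21.3 and 19.96 FPKM in M1 and 22.3, 24.2 and 23.2 FPKM in M1+PBM. The irradiated libraries were all above the M1 libraries by a small margin, with a log2 fold change of 0.23 (SE 0.10, 95% interval -0.01 to 0.47). Its unadjusted p was 0.060 without and 0.032 with the replicate block, and the adjusted p in limma was 0.90 and 0.58. Sqstm1 was at 257, 238 and 215 FPKM in M1 and 176, 214 and 196 FPKM in M1+PBM. The highest irradiated library lay just under the lowest M1 library, with a log2 fold change of -0.27 (SE 0.12, 95% interval -0.57 to 0.02, adjusted p = 0.90 in limma). Prdx2 was at 42.5, 43.6 and 41.8 FPKM in M1 and 49.6, 44.3 and 49.0 FPKM in M1+PBM, a log2 fold change of 0.16 (SE 0.09, 95% interval -0.07 to 0.38). Nfe2l2 itself was at 44.9, 57.5 and 36.5 FPKM in M1 and 42.7, 55.0 and 34.1 FPKM in M1+PBM. Each irradiated library was just below its same-numbered M1 library, and the log2 fold change was -0.08 (SE 0.23, 95% interval -0.62 to 0.47).

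Gstm1 was at 114, 98.6 and 58.5 FPKM in M1 and 82.6, 75.1 and 51.1 FPKM in M1+PBM. The spread within each group exceeded the difference between them, with a log2 fold change of -0.35 (SE 0.29, adjusted p = 0.90 in limma). Within the replicate numbers it was lower in 3 of 3, by -0.47, -0.39 and -0.19, and the unadjusted p with the replicate block was 0.012 (adjusted p = 0.58).

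Hmox1 was at 1023, 746 and 862 FPKM in M1 and at 1002, 585 and 1385 FPKM in M1+PBM. The irradiated libraries included both the lowest and the highest of the 6, and the log2 fold change was 0.10 (SE 0.32, 95% interval -0.66 to 0.86). Nqo1 was at 3.61, 1.44 and 1.41 FPKM in M1 and 1.32, 0.729 and 1.73 FPKM in M1+PBM, a log2 fold change of -0.43 (95% interval -1.15 to 0.28). Neither gene passed the test. The interval of Nqo1 reaches past a 2-fold decrease, while that of Hmox1 lies within 2-fold either way. For Gpx1, at 48.1, 47.8 and 35.5 FPKM in M1 and 65.1, 44.3 and 72.4 FPKM in M1+PBM, the log2 fold change was 0.44 (SE 0.22, 95% interval -0.08 to 0.96). The intervals of the remaining genes all include 0. They were narrow for Glrx2 (-0.17 to 0.29) and Txn2 (-0.16 to 0.32) and wide for Glrx (-1.28 to 0.97) and Srxn1 (-1.43 to 0.58). Glrx2 lay at 1.20 to 1.54 FPKM in M1 and M1+PBM, where log2(FPKM + 1) understates changes and narrows the interval.

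**Figure D4:**
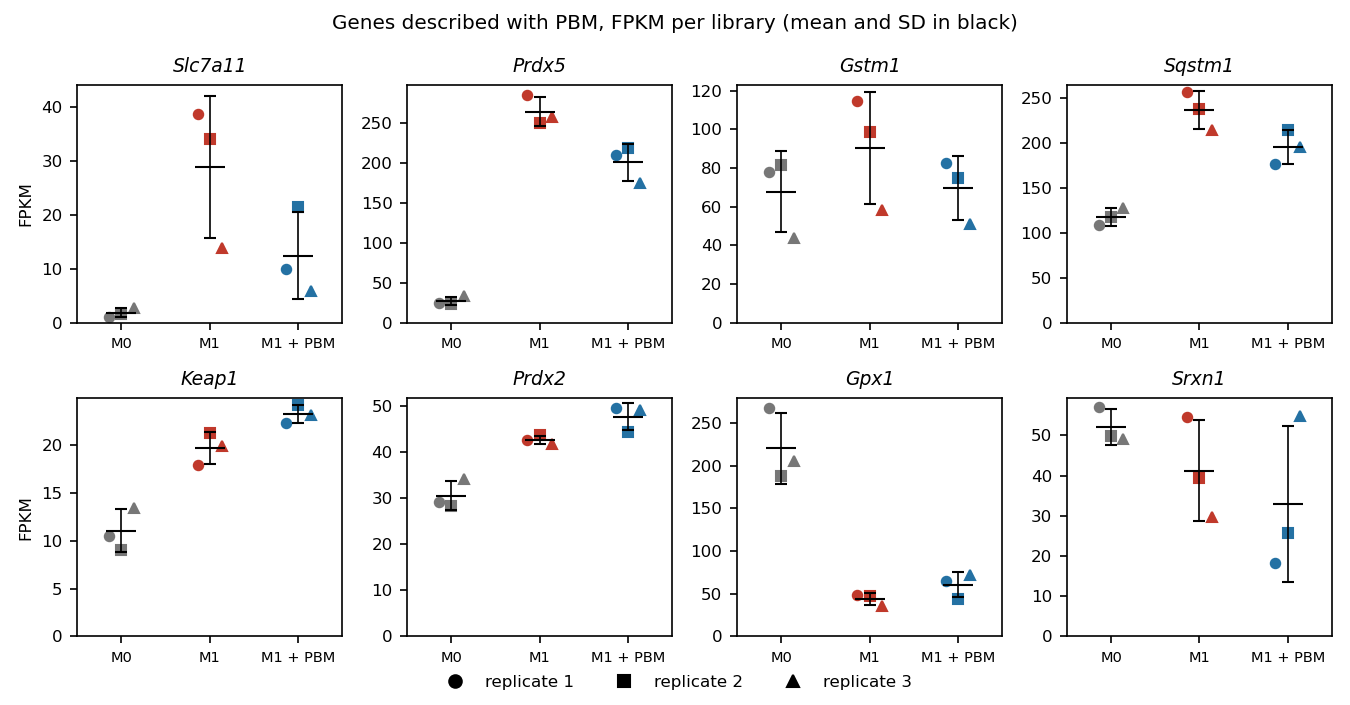
FPKM on a linear axis from 0 in each of the 9 libraries for 8 genes described with PBM, with a point per library, shaped by replicate number, and black marks for the group mean and SD (n = 3). Keap1 and Prdx2 have all M1+PBM points above M1, Prdx5 and Sqstm1 have all below, and in Srxn1 replicate 3 has the lowest M1 point and the highest M1+PBM point.

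The replicate numbers differed in the direction of these genes. M1+PBM minus M1 on the log2 scale was below 0 for 23 of 34 genes in replicate 1 and 24 of 34 in replicate 2, but above 0 for 24 of 34 in replicate 3. The medians were -0.10, -0.14 and 0.22, beside 0.03, 0.01 and 0.13 over all rows. A pattern noticed after the values were seen was that 12 genes (35.3%) were lower in replicates 1 and 2 and higher in replicate 3, beside 12.1% of rows. They were Hmox1, Nqo1, Gclm, Gclc, Gss, Txnrd1, Srxn1, Cat, Prdx1, Prdx6, Mgst1 and Gsto1. Other genes of the same roles went differently, with Gsr at -0.55, 0.19 and -0.27 and Blvrb at -0.30, 0.21 and 0.01. Srxn1 showed the widest swing, at -1.54, -0.60 and 0.86, from 54.6, 39.5 and 29.7 FPKM in M1 and 18.1, 25.7 and 54.9 FPKM in M1+PBM. Prdx6 went by -0.90, -0.50 and 0.47, Cat by -0.43, -0.18 and 0.96, and Hmox1 by -0.03, -0.35 and 0.68. By comparison, 5 genes (14.7%) were lower in 3 of 3 numbers (Nfe2l2, Slc7a11, Prdx5, Gstm1 and Sqstm1), beside 10.1% of rows. Only 3 (8.82%) were higher in 3 of 3 (Keap1, Gpx4 and Prdx2), beside 25.5% of rows. Gpx1 was higher in replicates 1 and 3, by 0.43 and 1.01, and at -0.11 in replicate 2.

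M1 replicate 3 stood low for these genes, and M1 replicate 1 stood high. M1 replicate 3 was the lowest of the 3 M1 libraries for 23 of 34 genes (67.6%), beside 51.6% of rows. Without it, 7 genes were lower at an unadjusted p of at most 0.05 (Slc7a11, Prdx5, Gstm1, Sqstm1, Gclc, Txnrd1 and Prdx1) and 0 were higher, beside 2.03% and 2.26% of rows. The count of genes above 0 went from 15 to 9, beside 58.3% of rows. M1 replicate 1 was the highest M1 library for 23 of 34 genes, beside 25.6% of rows. Without M1 replicate 1, limma gave that p to none of the 34 genes, beside 0.943% of rows lower and 1.66% higher. Then 22 genes were above 0, beside 65.7% of rows. The summed M1 induction genes of M1 replicate 3, at 3878 FPKM, were close to those of replicate 1, at 3787 FPKM, and those of M1+PBM were 2604, 3035 and 2000.1 FPKM. M1 replicate 2 alone held the liver gene Alb, at 9.01 FPKM. Their part in the results was not tested.

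**Figure D5:**
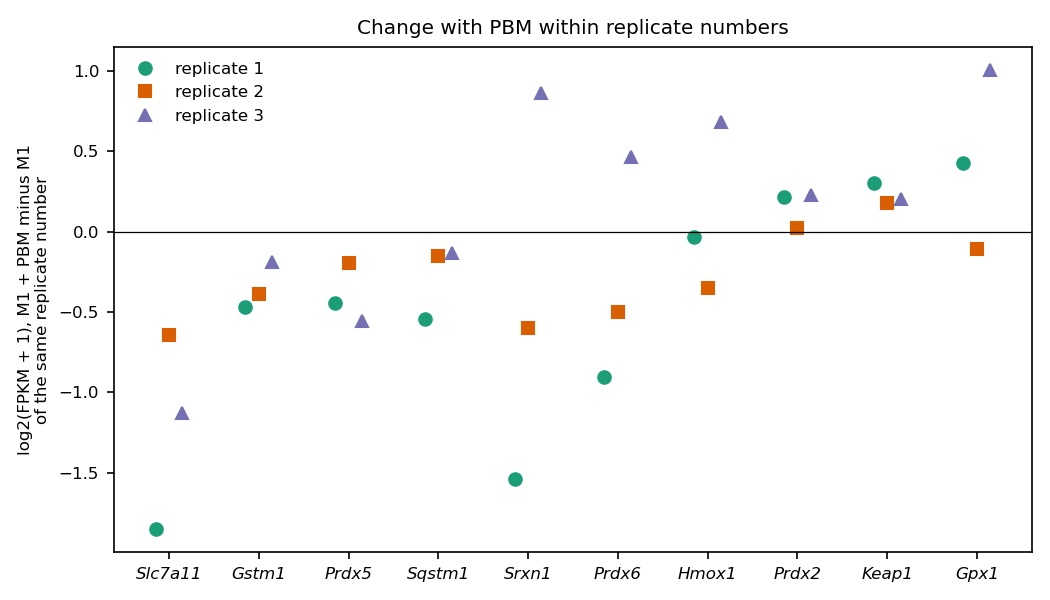
Difference in log2(FPKM + 1), M1+PBM minus M1, within each shared replicate number for 10 genes, with 1 point per number. Slc7a11, Gstm1, Prdx5 and Sqstm1 have all points below 0, Prdx2 and Keap1 have all above, and Srxn1, Prdx6 and Hmox1 are below 0 in replicates 1 and 2 and above 0 in replicate 3.

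Beyond these 34, 82 other genes of the pathway were followed in 4 lists, of which 63 could be tested for PBM and 67 compared between M0 and M1. With PBM, 4 were higher (6.35%) and 1 lower (1.59%) at an unadjusted p of at most 0.05, beside 2.99% and 1.45% of rows. None of the 63 had an adjusted p under 0.05 in limma. The log2 fold change was above 0 for 41 of 63 (65.1%), near the share of all rows, with a median of 0.05. Between M0 and M1, 5 were called higher (7.46%) and 13 lower (19.4%), beside 7.81% and 13.7% of rows. Without M0 replicate 3, 6 were called higher (8.96%) and 13 lower (19.4%), beside 8.82% and 14.6% of rows. After scaling, 12 were called higher (17.9%) and 5 lower (7.46%), beside 11.7% and 6.93% of rows. The partners and regulators of NRF2 and KEAP1 had 9 tested genes. Of these, 1 was lower with PBM at an unadjusted p of at most 0.05, beside 1.45% of rows. This was Maff, a small MAF partner of NRF2, with a log2 fold change of -0.67 (SE 0.26). Its unadjusted p was 0.041 and its adjusted p 0.90 in limma, and 0.062 and 0.58 with the replicate block. With the block, Bach1, a repressor that competes with NRF2, had an unadjusted p of 0.016 (adjusted p = 0.58 in limma) and a log2 fold change of 0.30. Maff was called higher in M1 than in M0, by 1.15.

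The list of NADPH, iron and drug-export genes had 19 tested genes. Of these, 2 were higher with PBM at an unadjusted p of at most 0.05, beside 2.99% of rows. Idh1, a cytosolic source of NADPH, was at 28.8, 62.9 and 24.7 FPKM in M0, 11.2, 8.96 and 7.72 FPKM in M1 and 16.8, 13.1 and 18.4 FPKM in M1+PBM. All irradiated libraries lay above M1 and below M0, with a log2 fold change of 0.73 over M1 (SE 0.17, unadjusted p = 0.0046, adjusted p = 0.90 in limma). Blvra, a biliverdin reductase, was higher by 0.40 (SE 0.12, unadjusted p = 0.012, adjusted p = 0.90 in limma). In this list 8 of 19 genes were called lower in M1 than in M0, with Ephx1 (-2.04), Idh1 (-1.85) and Akr1b8 (-1.84) first, beside 13.7% of rows, and 1 was called higher (Abcc5, 1.48). After scaling 4 were called lower and 4 higher, beside 6.93% and 11.7% of rows. The list of 14 other glutathione genes tested had none past an unadjusted p of 0.05 with PBM, beside 2.99% of rows higher and 1.45% lower. Between M0 and M1 it held Gstt1 (1.61) and Slc3a2 (1.13), the partner chain of Slc7a11, as higher, and Hagh (-1.05) as lower. These were 2 and 1 of 18 genes compared, beside 7.81% and 13.7% of rows.

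The list of other thioredoxin, glutaredoxin and repair genes had 21 tested genes. Of these, 2 were higher with PBM at an unadjusted p of at most 0.05, beside 2.99% of rows. Sesn1, a sestrin, was at 26.1, 32.1 and 18.2 FPKM in M0, 1.37, 1.95 and 1.08 FPKM in M1 and 3.93, 2.38 and 4.06 FPKM in M1+PBM. Its irradiated libraries were all above M1 and far below M0, with a log2 fold change of 0.84 over M1 (SE 0.20, unadjusted p = 0.0052, adjusted p = 0.90 in limma). Oxr1, an oxidation resistance gene, was higher by 0.44 (SE 0.11, unadjusted p = 0.0051, adjusted p = 0.90 in limma). Between M0 and M1, 4 of 21 genes were called lower, among them Sesn1 (-3.40) and Oxr1 (-1.21), beside 13.7% of rows. Selenow, a small selenoprotein, was the only 1 called higher as deposited (2.54), beside 7.81% of rows. Without M0 replicate 3, 2 genes were called higher and 4 lower, beside 8.82% and 14.6% of rows. These were not all the same genes. After scaling 1 was called lower and 3 higher, beside 6.93% and 11.7% of rows.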

How the data were processed

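RNA-seq was analysed for 9 libraries in 3 groups. FPKM was the unit of both tables that the authors deposited, M0 standing apart from M1 and M1+PBM, with 55655 rows each. The methods name Cufflinks for expression values, and the submitters' processing notes name Bowtie 0.12.2 and mm9. The annotation and filters are not given in the sources used here. Symbols came from GENCODE (55154 rows), and 320 rows were assembled loci with names starting with MSTRG and without a gene identifier. Which pipeline made the FPKM values cannot be told from these sources. The promoter sequences and their coordinates are RefSeq GRCm38.p6, and no coordinates of mm9 were used. FPKM steps matched whole fragments for 30.8 to 33.1% of low values (within 0.05, where even spread gives 10%), so depth is an estimate, reads were not recovered, and fragments and reads cannot be told apart.

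M1+PBM and M1 were compared with limma 3.58.1 (R 4.3.3, two-sided, trended eBayes) on log2(FPKM + 1), over rows at 1 FPKM or more in at least 3 of 6 libraries, with Benjamini-Hochberg adjustment over all rows. A fold change on this scale understates the change of low genes. The study names thresholds for differential expression but does not say which test gave those p-values. M0 and M1 were compared over rows at 1 FPKM or more in at least 3 of 9 libraries, without a test. The limma fit was tested on simulated data with independent libraries and changes above 2-fold, so smaller changes and paired libraries were not covered. Same-numbered M1 and M1+PBM libraries deviated together (r of 0.16, 0.47 and 0.46, other pairs -0.49 to 0.03), most weakly in replicate 1. The numbers may therefore pair the samples, but the labels do not state it and this check used the same data. The main fit left the replicate number out, and a replicate block was fitted as an alternative. Other alternatives were the pseudocount, the FPKM minimum, 2 scalings, eBayes without trend and leaving out each library.

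Some items are not reported here. The members and lists were chosen with earlier results of these data known. Per-library values are given for NRF2 control genes, Hmox1, Nqo1, Slc7a11 and genes called or without overlap with PBM, and at most 3 genes per pathway list and comparison are named. Srxn1, Gpx1 and Gstm1 were given per library with PBM after their values were seen.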

Additional observations from a re-analysis of the deposited data

How the results depend on the processing

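Between M1+PBM and M1, the count of genes past both thresholds was 0 and became 1 (Slc7a11) with median-of-ratios scaling and with the replicate block, and lay between 0 and 1 when 1 library was left out. The count at an unadjusted p of at most 0.05 was 1 and became 2 without a minimum FPKM, 3 with median-of-ratios scaling, 0 with quantile normalization and 4 with the replicate block. It ranged from 0 (without M1 replicate 1) to 7 (without M1 replicate 3). The block added Keap1, Slc7a11 and Gstm1 and changed no other call among the 34 genes. Genes above 0 ranged from 9 to 22 and the median from -0.16 to 0.06 over the libraries left out. Calls between M0 and M1 numbered 11, and 15 with a pseudocount of 0.1, 14 after scaling and 11 to 14 with a library left out, where Gsr lost its call without M1 replicate 1 (0.99) and Gclc (4 libraries), Gsto1 (3) and Sqstm1 (2) gained one. Other alternatives turned Txnrd2 to -0.027 (median-of-ratios) and -0.034 (quantile), Prdx1 to 0.10 (quantile) and Msrb1 to -0.021 (median-of-ratios). The cause of these differences was not tested.

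Leaving out 1 library turned the sign of 19 genes, none of which passed the test as reported. The log2 fold change ranged from -0.25 to 0.089 for Nfe2l2, -0.18 to 0.44 for Hmox1, -0.28 to 0.037 for Gclm, -0.35 to 0.18 for Gclc and -0.15 to 0.058 for Gss. It ranged from -0.063 to 0.075 for Txnrd2, -0.19 to 0.11 for Sod2, -0.21 to 0.29 for Cat, -0.0012 to 0.37 for Gpx4 and -0.34 to 0.050 for Prdx1. For Prdx3 it was -0.080 to 0.21, for Prdx4 -0.23 to 0.18, for Glrx -0.52 to 0.30, for Glrx2 -0.0029 to 0.10 and for Mgst1 -0.17 to 0.45. For Mgst3 it was -0.0068 to 0.36, for Gsto1 -0.18 to 0.24, for Blvrb -0.11 to 0.11 and for Msrb1 -0.0041 to 0.17. With 3 libraries a group and low counts for Nqo1, smaller changes may go unseen.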
